A study of Mus musculus with 6 samples.

Results

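Genes for proteins of the meningeal matrix and for factors secreted around the brain were measured in the prelimbic cortex (PL) of unstressed and stressed mice. A chosen set of 6 of these genes is described here: Ptgds, Dcn, Ogn, Col1a1, Aebp1 and Bmp4. They were taken by symbol from the study's own tables of probes that differed by at least 1.2-fold in mean signal between groups, and each had 1 named probe (ILMN_1248316 for Ptgds, ILMN_2747959 for Dcn, ILMN_2859613 for Ogn, ILMN_2687872 for Col1a1, ILMN_2873822 for Aebp1 and ILMN_1215252 for Bmp4). The genes lie on chromosomes 2 (Ptgds), 10 (Dcn), 13 (Ogn), 11 (Col1a1 and Aebp1) and 14 (Bmp4). They are therefore 6 of 25697 probes on the array, of which 899 carry a name from those tables and 679 of the named probes passed the detection filter. Of the 6 genes, 5 stood in both tables, CRST against CON and CRST+RS5 against CRST, and Bmp4 stood only in the second. Both of these comparisons chose the genes, so the values in them are given as a description, without a test.

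The mice were C57BL/6 males, 3 months old. CON mice were left unrestrained. In CRST mice, restraint lasted 2 h a day and was repeated on 14 days, and CRST+RS5 mice had this and then 5 min of restraint a day, also on 14 days. PL tissue was taken on post-stress day 22 and RNA was pooled from 6 to 7 animals, so that each of the 2 bead arrays of a group stands for a pool and not for a mouse. The comparisons ask what chronic restraint changed in the PL and what the later daily short restraint changed on top of it.

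The leptomeninges, the thin membranes on the brain surface, hold fibroblasts that secrete collagens and small leucine-rich proteoglycans, as well as signals that reach the cortex beneath them. Ptgds makes prostaglandin D2 and is also secreted as a carrier of small lipophilic molecules in the cerebrospinal fluid. Col1a1 is a chain of type I collagen, Dcn (decorin) and Ogn (osteoglycin) are small leucine-rich proteoglycans that bind collagen or lie beside it in the matrix, Aebp1 is a secreted collagen-binding protein related to carboxypeptidases, and Bmp4 is a ligand of the bone morphogenetic protein (BMP) family. Col1a1 and Bmp4 are also expressed in bone, and Ptgds is also made by oligodendrocytes. In bulk tissue, fewer cells of a type and less RNA per cell cannot be told apart.

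As a description, the 250 bases before the transcription start are shown for the 4 genes that matched an entry of the RefSeq promoter table (build GRCm38.p6). Dcn and Col1a1 are named only. Capitals mark every match, on either strand, of 6 motifs. These were TATAAA, the core of the TATA element, the CCAAT element, and GGCGCC, a GC-rich element bound by BMP-activated SMADs. The others were CAGAC, the core of the SMAD-binding element, AGAACA, the half-site of the glucocorticoid receptor, and GGGCGG, the element bound by Sp1. The windows lie at chr2:25469750-25469999 on the minus strand for Ptgds, at chr11:5861616-5861865 on the plus strand for Aebp1, at chr13:49607765-49608014 on the plus strand for Ogn and at chr14:46390670-46390919 on the minus strand for Bmp4. Each is written 5′ to 3′ along its gene.
Ptgds: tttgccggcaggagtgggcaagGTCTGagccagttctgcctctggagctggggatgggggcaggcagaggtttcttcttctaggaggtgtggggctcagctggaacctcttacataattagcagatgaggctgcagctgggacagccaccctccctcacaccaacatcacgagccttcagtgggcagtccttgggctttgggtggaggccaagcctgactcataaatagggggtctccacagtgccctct
Aebp1: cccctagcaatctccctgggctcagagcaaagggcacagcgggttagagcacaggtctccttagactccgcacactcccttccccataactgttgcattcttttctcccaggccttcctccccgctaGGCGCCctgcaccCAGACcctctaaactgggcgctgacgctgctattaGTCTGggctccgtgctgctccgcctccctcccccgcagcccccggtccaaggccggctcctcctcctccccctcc
Ogn: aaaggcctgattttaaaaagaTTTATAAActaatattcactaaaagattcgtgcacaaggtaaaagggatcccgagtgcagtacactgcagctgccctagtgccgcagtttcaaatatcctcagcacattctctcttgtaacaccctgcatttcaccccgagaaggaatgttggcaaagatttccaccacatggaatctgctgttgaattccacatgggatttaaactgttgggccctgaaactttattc
Bmp4: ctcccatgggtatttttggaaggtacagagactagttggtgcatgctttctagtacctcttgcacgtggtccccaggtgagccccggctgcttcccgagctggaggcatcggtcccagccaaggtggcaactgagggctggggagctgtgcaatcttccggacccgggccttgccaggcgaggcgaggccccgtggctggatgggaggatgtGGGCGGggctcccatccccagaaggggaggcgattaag

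The windows of Ptgds and Aebp1 held CAGAC, on 1 strand or both, a motif found in 42.2% of all 32851 windows of this length. Aebp1 alone held GGCGCC (9.59% of windows) and Bmp4 alone held GGGCGG (32.7%). Ogn alone held TATAAA (12.4%), on both strands in overlapping matches that lay between 229 and 222 bases before the start. None of the 4 windows held CCAAT (33.8%) or AGAACA (16.1%). The Ogn window was the poorest in G and C, at 42.0%, and the Aebp1 window the richest, at 64.4%, against a median of 52.4% over all windows. A match is a description of the letters, and these arrays do not measure binding.

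The tissue label was checked against marker lists, whose probes carry names because the study selected them on these same arrays. All 5 named markers of cortical neurons (among them Tbr1 and Fezf2) and all 19 named probes of oligodendrocyte genes were detected on all 6 arrays, and 17 probes of meningeal fibroblast genes passed the detection filter. Among these 17, Crabp2 and Zic4 passed it only through the CRST+RS5 arrays. A pair of arrays stood apart. CRST+RS5 replicate 2 carried the highest value of all 16 named olfactory mucosa probes, with a summed normalized signal of 36259.6 against 2858 to 3606 on the other 5 arrays, and of all 5 named bone probes, with 2124 against 740.4 to 824.2. CRST replicate 2 carried the highest value of all 19 oligodendrocyte probes, with a summed normalized signal of 153582 against 69668 to 84470. Between 12645 and 13407 probes were detected per array, and median signals ran from 186 to 230. Choroid plexus genes, of which 5 of 12 listed were named, summed to 1945 and 1008 in CON and 1248 and 3038 in CRST. In CRST+RS5 they summed to 1418 and 3268, so the same 2 arrays were the highest, but through different genes. Ttr read 11.16 on CRST replicate 2 and 9.30 on CRST+RS5 replicate 2, the latter below 10.21 on CON replicate 1. Wfdc2 read 10.61 on CRST+RS5 replicate 2 and 7.66 on CRST replicate 2. Values without one or the other of these arrays stand beside the comparisons of the members, and the part of these tissues in the results was not tested.

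Ptgds, the prostaglandin D2 synthase gene, had the largest difference of the 6 between CRST and CON. Its log2 normalized signal was 12.04 and 12.56 on the CON arrays (replicates 1 and 2), 11.32 and 12.04 on the CRST arrays, and 13.23 and 13.29 on the CRST+RS5 arrays, from deposited signals between 2327 and 9370. CRST replicate 1 was the lowest of the 6 arrays, CRST replicate 2 equalled CON replicate 1 to 2 decimals, and both CRST+RS5 arrays lay above all others. The means differed by -0.62 on the log2 scale between CRST and CON (1.53-fold lower in CRST), by 1.58 between CRST+RS5 and CRST (2.98-fold higher in CRST+RS5) and by 0.96 between CRST+RS5 and CON (1.94-fold). Without CRST replicate 2, the array with the oligodendrocyte signal, the difference between CRST and CON was -0.975.

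Dcn, which binds collagen fibrils and growth factors, read 9.64 and 10.26 in CON, 9.29 and 9.87 in CRST, and 10.81 and 11.07 in CRST+RS5 on the log2 scale. The CON and CRST arrays interleaved, and the CRST+RS5 arrays lay above both. The mean log2 difference was -0.37 for CRST against CON, 1.36 for CRST+RS5 against CRST (2.57-fold) and 0.99 for CRST+RS5 against CON (1.99-fold).

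Ogn, the other small leucine-rich proteoglycan of the set, had the widest spread between the arrays of CON and of CRST. It read 8.19 and 9.18 in CON, 7.69 and 8.70 in CRST, and 9.78 and 9.80 in CRST+RS5. The second array of CON and of CRST was about as far above the first as CON was below CRST+RS5, while the CRST+RS5 arrays almost coincided. On CRST replicate 1 the probe was only just detected, with a detection p of 0.0426. The mean log2 difference was -0.50 for CRST against CON, 1.60 for CRST+RS5 against CRST (3.03-fold) and 1.10 for CRST+RS5 against CON (2.15-fold).

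Col1a1 was the only one of the 6 whose CRST+RS5 arrays lay far apart. It read 7.89 and 8.33 in CON, 7.53 and 7.90 in CRST, and 8.39 and 9.62 in CRST+RS5, and on CRST replicate 1 it was not detected (detection p of 0.107). CRST+RS5 replicate 1 lay only 0.06 above the higher CON array, and CRST+RS5 replicate 2, the array that also carried the bone and olfactory mucosa signals, lay 1.22 above replicate 1. The mean log2 difference of 1.29 between CRST+RS5 and CRST became 0.68 without CRST+RS5 replicate 2 and 1.90 without replicate 1. Against CON, the difference of 0.90 became 0.29 and 1.51 in the same way, so the size of the Col1a1 difference was set by that array. On that same array the osteocalcin gene Bglap2, a defining marker of bone, read 9.31 against 7.16 to 7.33 on the other 5.

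Aebp1, which binds collagen fibrils, read 8.44 and 8.84 in CON, 8.09 and 8.57 in CRST, and 9.46 and 9.45 in CRST+RS5. Bmp4 read 8.49 and 8.65 in CON, 8.29 and 8.53 in CRST, and 9.15 and 9.07 in CRST+RS5. For both genes the CON and CRST arrays overlapped and the 2 CRST+RS5 arrays lay close together above them. Aebp1 differed by -0.31 between CRST and CON and by 1.12 between CRST+RS5 and CRST, and Bmp4 by -0.16 and 0.70, the smallest differences of the set in both comparisons. At the threshold of 1.2-fold, which is 0.263 on the log2 scale, Aebp1 was the member just inside and Bmp4 the member just outside in CRST against CON.

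**Figure D1:**
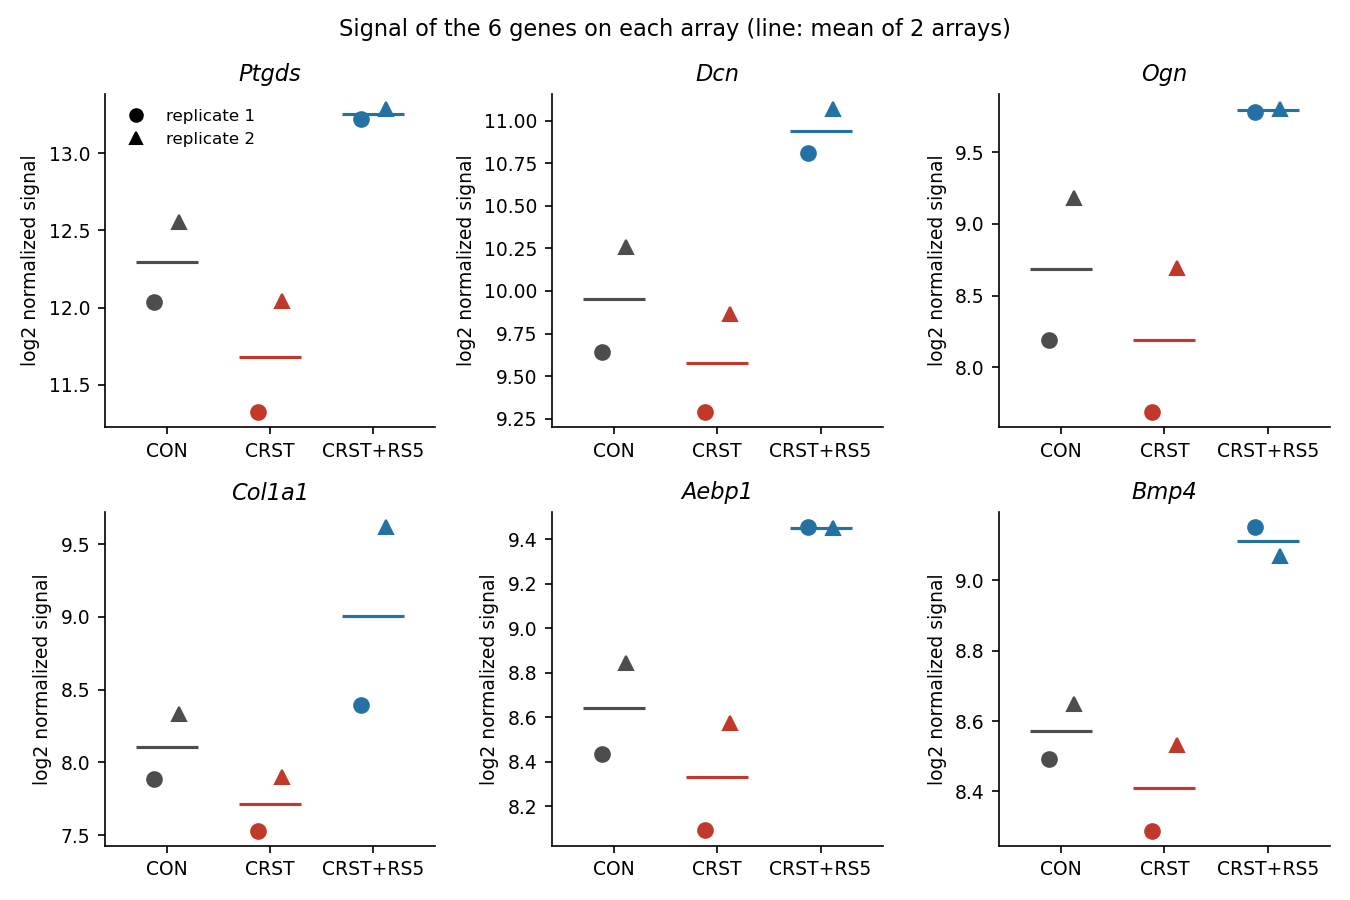
Log2 normalized signal of each of the 6 genes (vertical axes, each with its own range that does not start at 0) on the arrays of CON, CRST and CRST+RS5, with circles for replicate 1, triangles for replicate 2 and a line at the mean of the 2 arrays. In every panel the CRST+RS5 arrays lie above the other 4, and the CON and CRST arrays overlap.

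In CRST against CON, all 6 genes had a lower mean in CRST and 5 of them were lower by at least 1.2-fold, a count that the choice of genes fixed (0.864% of the 13083 probes tested were lower by that much). For all 6 genes the arrays of the groups overlapped, while 14.3% of all probes were lower in CRST without overlap. The median log2 difference of the 6 was -0.38, against 1e-04 for all probes. It moved with the pool left out. It was -0.07 without CRST replicate 1, when 0 of 6 genes remained past 1.2-fold and Ogn turned to 0.0077, and it was -0.09 without CON replicate 2, when only Ptgds did. Without CRST replicate 2 it was -0.62, with 6 of 6 past 1.2-fold (Dcn at -0.66, Ogn at -0.999, Aebp1 at -0.55, Bmp4 at -0.28 and Col1a1 at -0.58), and without CON replicate 1 it was -0.65. Leaving out 1 array compares unequal numbers of replicates 1 and 2. Between arrays of the same number, CRST was below CON in 12 of 12 differences, from -0.72 to -0.12. This was compared after seeing the data and is no independent support. This comparison chose 5 of the 6 genes, the 6 genes share the same arrays, and equal numbers are not known to pair the arrays.

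In CRST+RS5 against CRST, all 6 genes were higher in CRST+RS5 by at least 1.2-fold, again as chosen (2.89% of all probes), with no overlap between the arrays (16.9% of all probes were higher without overlap). The order of the differences was Ogn, Ptgds, Dcn, Col1a1, Aebp1 and Bmp4, from 1.60 to 0.70, with a median of 1.33 against -0.01 for all probes. Without CRST+RS5 replicate 2, the array with the olfactory mucosa and bone signals, the median was 1.18 and the 5 genes other than Col1a1 lay between 0.74 (Bmp4) and 1.59 (Ogn). Without CRST replicate 2, the array with the oligodendrocyte signal, the median was 1.56.

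CRST+RS5 against CON was not a comparison that chose the genes, although it shares its arrays with both that did and so is no independent support. All 6 genes were higher in CRST+RS5 by at least 1.2-fold, against 2.57% of all probes, and in all 6 no array overlapped, against 17.7%. The median log2 difference was 0.93, against -0.01 for all probes. With limma's moderated test and Benjamini-Hochberg adjustment over 13083 probes, none of the 6 passed 0.05, nor did any probe (0%), while 7.99% of probes had an unadjusted p under 0.05. Bmp4 had the smallest error, with a log2 difference of 0.54 ± 0.10 (SE, n = 2 arrays per group) and an adjusted p of 0.445 in limma. For Ptgds the difference was 0.96 ± 0.23, for Dcn 0.99 ± 0.23 and for Aebp1 0.81 ± 0.17, each with an adjusted p of 0.519 in limma. For Ogn it was 1.10 ± 0.35, with an adjusted p of 0.569, and for Col1a1 0.90 ± 0.33, with an adjusted p of 0.604, both in limma. Without CRST+RS5 replicate 2 the median was 0.84 and the adjusted p in limma was 0.931 for each of the 6 genes.

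**Figure D2:**
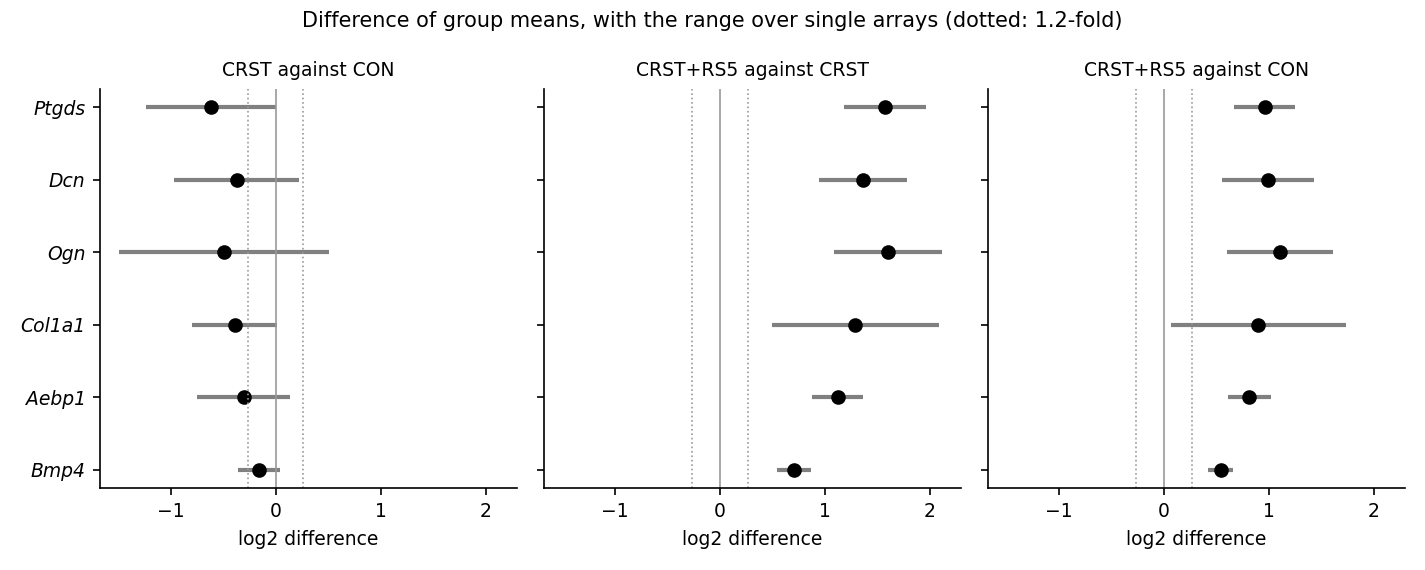
Log2 difference of the group means for the 6 genes in the 3 comparisons (points), with bars from the lowest to the highest difference between a single array of one group and a single array of the other, and dotted lines at 1.2-fold. The bars reach or cross 0 for all 6 genes in CRST against CON and for none in the other comparisons, where Col1a1 has the longest bars.

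The genes were chosen on differences between group means, and the difference between the 2 arrays of a group was not itself a criterion. It is not free of that choice, because a mean of 2 arrays moves with either array. The genes were also chosen with earlier results of these data known. The shares of all probes below are therefore a description beside chosen genes. In CON all 6 genes were higher on replicate 2 than on replicate 1 (48.7% of all probes), by 0.16 (Bmp4) to 0.99 (Ogn) on the log2 scale, and 5 were higher by at least 1.2-fold, against 4.14% of all probes. In CRST all 6 were again higher on replicate 2 (48.7% of all probes), by 0.24 (Bmp4) to 1.01 (Ogn), 5 of them by at least 1.2-fold against 5.45% of all probes. Ptgds, Dcn, Ogn, Col1a1 and Aebp1 were past 1.2-fold in both groups, as were 0.642% of all probes. Ogn showed the largest step in both groups and Bmp4 the smallest (Ptgds stepped by 0.52 and 0.72, Dcn by 0.62 and 0.58, Col1a1 by 0.44 and 0.37 and Aebp1 by 0.41 and 0.48).

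The CRST+RS5 arrays differed in another way, with 4 of 6 genes higher on replicate 2 (47.3% of all probes). Col1a1 was higher on replicate 2 by 1.22, the only gene of the 6 past 1.2-fold (3.02% of all probes), and Dcn by 0.26, just under it. Ptgds (0.06), Ogn (0.02), Aebp1 (-0.0047) and Bmp4 (-0.08) were almost level. The median difference of the 6 was 0.48 in CON, 0.53 in CRST and 0.04 in CRST+RS5, against medians of all probes between -0.01 and 0.00. The difference between pools of CON, 0.48, was larger in size than the difference of -0.38 between CRST and CON, and smaller than that of 0.93 between CRST+RS5 and CON. These are unlike measures, since the first is between single arrays and the others are between means of 2 arrays, which vary less. The methods describe the 3 groups as prepared in 2 sets, independent of each other, but neither they nor the labels say that an equal replicate number marks a set.

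**Figure D3:**
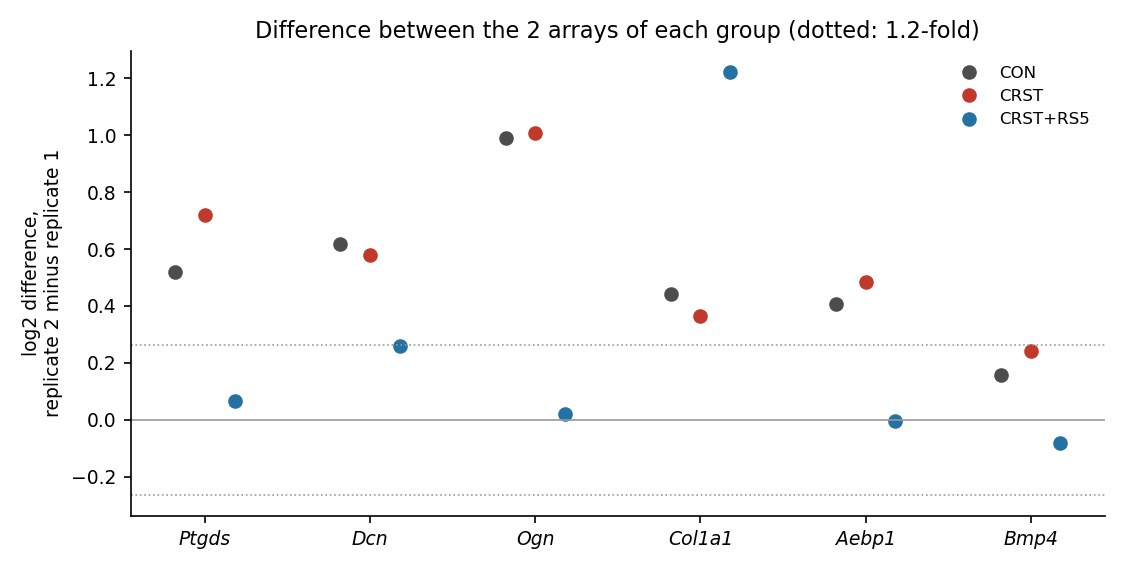
Log2 signal of replicate 2 minus replicate 1 for the 6 genes in CON, CRST and CRST+RS5, with dotted lines at 1.2-fold. In CON and CRST all 6 genes lie above 0 and 5 above the dotted line, and in CRST+RS5 only Col1a1, at 1.22, lies above it.

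**Figure D4:**
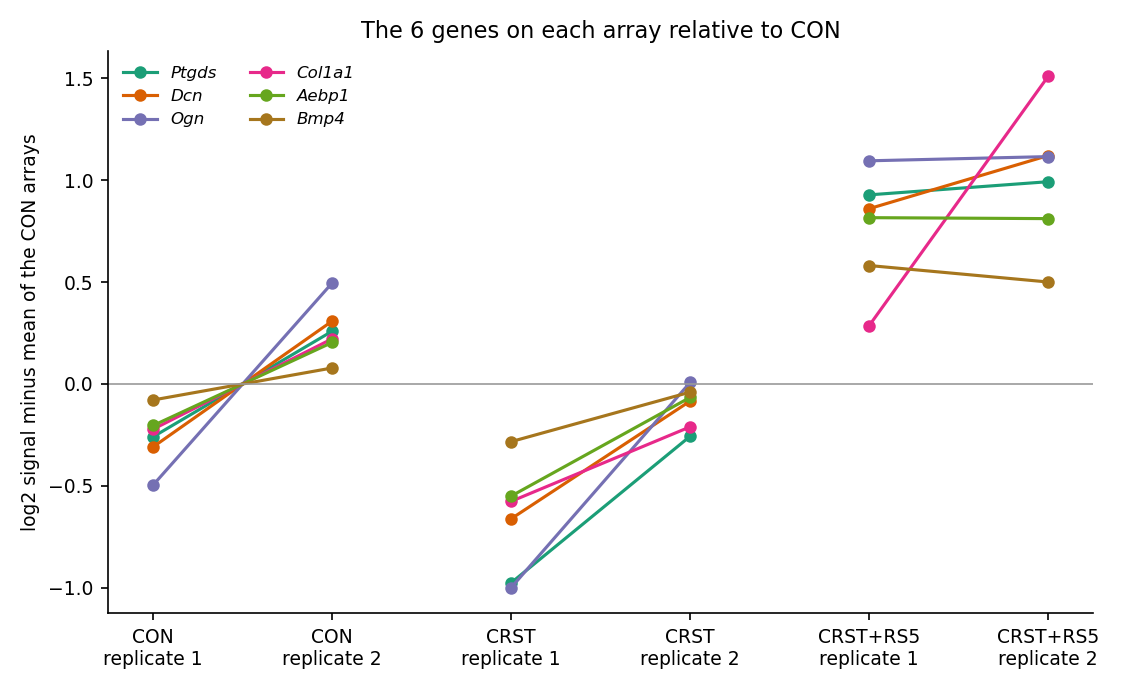
Log2 signal of the 6 genes on each array, after subtraction of the mean of the CON arrays. The 2 arrays of a group are joined. The lines of all 6 genes rise in CON and in CRST, most steeply for Ogn and least for Bmp4, while in CRST+RS5 only the line of Col1a1 rises steeply.

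Profiles over the 6 arrays were compared as the root mean square (RMS) difference of log2 values after each gene's own mean was subtracted. It describes 6 arrays that share pools and carries no test. Within the set, Ptgds and Dcn were most alike (RMS 0.13), followed by Dcn and Aebp1 (0.14) and Ptgds and Ogn (0.17). Bmp4 and Ogn were least alike (0.49), since Bmp4 moved in the same directions by smaller steps, and Col1a1 was 0.29 or more from every other member.

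For every member but Ptgds, the nearest named probe was that of a gene outside the set. The nearest named probe to Ogn was that of Slc13a4, a sulfate transporter (RMS 0.05), to Dcn that of Mgp, the matrix Gla protein that inhibits calcification (0.07), to Bmp4 that of Dab2, an endocytic adaptor (0.03), and to Aebp1 that of Slc22a6, an organic anion transporter (0.08). After these came Slc6a12 (0.06) and Aox3 (0.07) for Bmp4, and Serping1 (0.08) and Adamts2 (0.10) for Aebp1. Slc13a4 (0.16) and Igf2 (0.17) followed Dcn for Ptgds. For Col1a1 no probe was that close: Gstm2 (0.22), the smooth muscle actin gene Acta2 (0.23) and Inmt (0.24) came first, and Gstm2 and Inmt were, like Col1a1, highest on CRST+RS5 replicate 2, at 10.19 and 9.54. The mean of the 6 was nearest to Mgp (0.08), then Acta2 (0.11) and Igf2 (0.13). Each of these probes was also among the 3 nearest of all 13083 probes, named or not.

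The gene lists around the 6 are described by counts and medians only. Their named probes were selected on these arrays by the same 1.2-fold criterion, so a count of higher probes in CRST+RS5 against CRST says little about a list. Of 15 small leucine-rich proteoglycan genes listed, 6 were named and all 6 were higher in CRST+RS5 than in CRST, with a median of 0.83. Besides Dcn and Ogn these were Bgn (biglycan), at 0.91, Fmod (fibromodulin), at 0.75, Lum (lumican), at 0.52, and Prelp, at 0.37. Against CON, 5 of the 6 were higher by at least 1.2-fold (2.57% of all probes), the exception being Prelp at 0.22. Lum rested on CRST+RS5 replicate 2, and without that array it differed by 0.10 from CRST and by 0.04 from CON, which left 5 of the 6 higher than in CRST and 4 of the 6 higher than in CON. In CRST against CON only Dcn and Ogn were lower by 1.2-fold (0.864% of all probes), with Bgn and Fmod both at -0.26, and without CRST replicate 2 these 4 were, with Bgn and Fmod both at -0.46.

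Of 35 genes of collagens and their processing, 10 were named and 9 passed the filter, all 9 higher in CRST+RS5 than in CRST (median 0.43). Beside Col1a1 and Aebp1, the largest was Adamts2, the protease that trims procollagen, at 0.93, followed by the crosslinking enzyme Loxl1 at 0.51, the procollagen C-proteinase enhancer Pcolce at 0.43 and Col18a1 at 0.41. Fkbp10, at 0.34, Col9a2, at 0.28, and Bmp1, at 0.28, were nearer to the threshold. Without CRST+RS5 replicate 2, 8 of the 9 were higher, the exception being Col9a2 at 0.21, and without CRST replicate 2 also 8, the exception being Bmp1 at 0.26. Col4a4 was detected on none of the 6 arrays. Col1a1 was the only chain of a fibrillar collagen named, and Col18a1 and Col9a2 lay below every one of the 6 members. Other matrix lists were not uniform. Of 13 tested probes for basement membrane and other matrix, 12 were higher in CRST+RS5 than in CRST (2.89% of all probes), with Emilin1 at 0.16. Of 6 tested probes for matrix proteases and inhibitors, 5 were higher and 1, Adamts4 at -0.34, was lower (1.75% of all probes).

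Of 34 genes of the BMP pathway 7 were named, and all 7 were higher in CRST+RS5 than in CRST (median 0.46). Beside Bmp4 they were the ligands Bmp7 (0.36) and Gdf10 (0.31), the inhibitor Nbl1 (0.46), the inhibitory SMAD Smad6 (0.29) and the target genes Id1 (0.52) and Msx1 (0.58). Bmp4, at 0.70, was the largest of the 7. Against CON, 4 of the 7 were higher by at least 1.2-fold (2.57% of all probes), namely Bmp4, Bmp7 (0.37), Id1 (0.34) and Msx1 (0.37). In CRST against CON none differed by 1.2-fold in either direction. Without CRST+RS5 replicate 2, Smad6 was at 0.15 against CRST and 6 of the 7 were higher, and without CRST replicate 2, 3 of the 7 were lower in CRST than in CON (Msx1 at -0.43, Bmp4 at -0.28 and Id1 at -0.27). Of 18 genes of prostaglandin synthesis and reception, 3 were named: Ptgds, the prostacyclin synthase gene Ptgis, and the receptor gene Ptger4, which was detected on none of the 6 arrays. Ptgis was at 0.68 between CRST+RS5 and CRST and 0.57 between CRST+RS5 and CON. It was detected on 1 CON array, 0 CRST arrays and 2 CRST+RS5 arrays. It therefore passed the filter only through CRST+RS5, and these differences are measured largely against undetected signals.

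Markers of meningeal fibroblasts are described beside the set. Their named probes were selected on these same arrays, so they cannot check the name given to it. Of 23 listed genes, 16 were named, by 17 probes, and their summed normalized signal ran the same way as the 6 genes: 9753 and 13632 in CON, 8172 and 11156 in CRST, and 18594 and 18243 in CRST+RS5. In CRST+RS5 against CRST, 16 of 17 probes were higher by at least 1.2-fold (median 0.48, 2.89% of all probes), among them Igf2 (1.18) and Slc13a4 (1.58). The count includes Crabp2 (0.40) and Zic4 (0.37), which passed the detection filter only through CRST+RS5, the group where they were high. In CRST+RS5 against CON 10 of 17 probes were higher (median 0.41, 2.57% of all probes). In CRST against CON 6 were lower by at least 1.2-fold (median -0.17, 0.864% of all probes). Without CRST+RS5 replicate 2, 14 of 17 were higher in CRST+RS5 than in CRST (median 0.48). Replicate 2 was above replicate 1 in CON and CRST for the sum, and the CRST+RS5 arrays were almost level, as for Ptgds, Ogn, Aebp1 and Bmp4.

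The summed markers of other cell types at the brain surface were also higher on both CRST+RS5 arrays than on any other. Of the smooth muscle and pericyte list 6 of 14 genes were named, and their summed normalized signal was 6124 and 7346 in CON, 5171 and 6202 in CRST, and 8563 and 10202 in CRST+RS5, with Acta2 higher by 1.18 in CRST+RS5 than in CRST. For the border macrophage list, with 9 of 13 genes named, the sums were 2280 and 2695 in CON, 2148 and 2186 in CRST, and 3126 and 4177 in CRST+RS5. That list shares Cbr2 with the olfactory mucosa list, and Cbr2 read 10.10 on CRST+RS5 replicate 2 against 7.85 on replicate 1. Between the CRST arrays the list did not rise as the 6 genes did. Replicate 2 minus replicate 1 was -0.34 for H2-Ab1 and -0.12 for Cd74, but 0.15 for Mrc1 and 0.19 for Dab2. Oligodendrocyte probes were the reverse in CRST+RS5 against CRST, where 18 of 19 were lower by 1.2-fold (1.75% of all probes; median -0.45), but without CRST replicate 2 that median was 0.10. Of the 5 named markers of cortical neurons, 4 were also lower in CRST+RS5 than in CRST by 1.2-fold (median -0.31, 1.75% of all probes), while Cux2 was higher at 0.41. Their summed normalized signal was 12484 and 12515 in CON, 12175 and 14526 in CRST, and 10500 and 12030 in CRST+RS5, lower on both CRST+RS5 arrays than on any other. Without CRST replicate 2 the median was -0.21 and 0 of the 5 were lower by 1.2-fold. In CRST+RS5 against CON the median was -0.23, with 1 of the 5 lower. Without CRST+RS5 replicate 2, 4 of the 5 were lower in each comparison, with medians of -0.39 against CRST and -0.35 against CON. Whether meninges were present in different amounts in the pools was not tested.

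**Figure D5:**
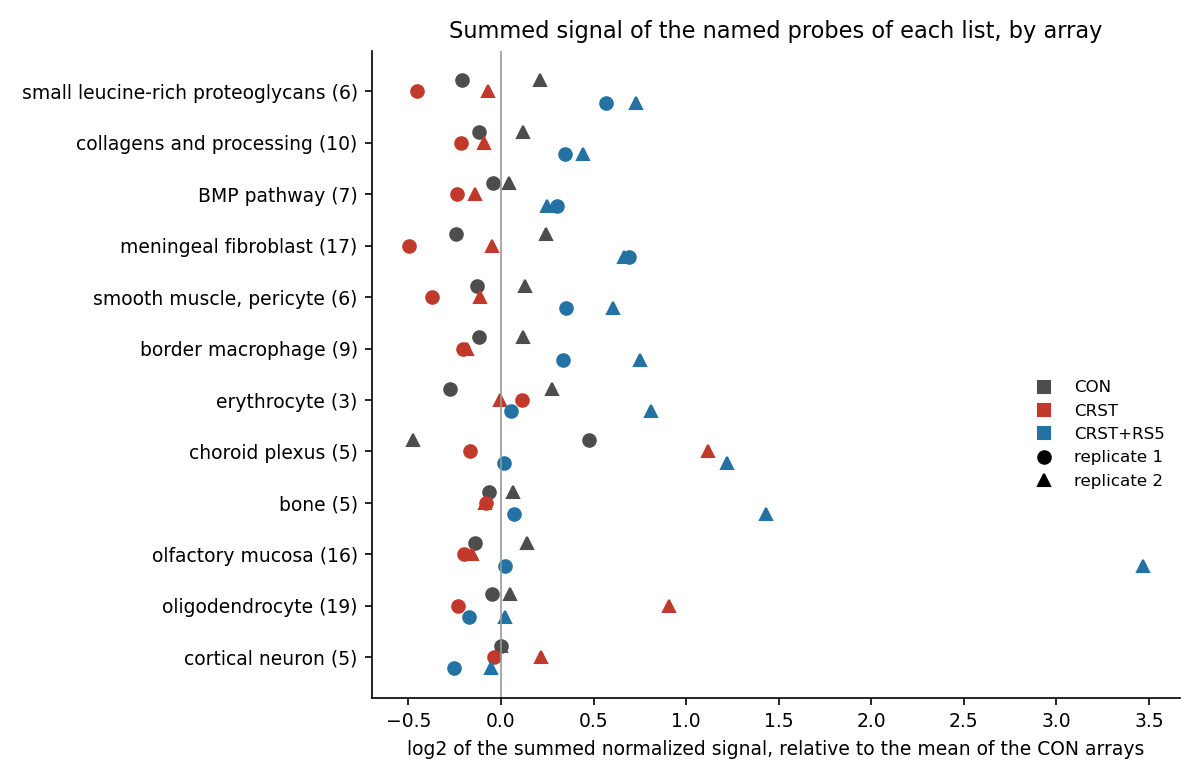
Log2 of the summed normalized signal of the named probes of each list (number of probes in parentheses) on each array, relative to the mean of the CON arrays. CRST+RS5 replicate 2 stands apart for olfactory mucosa (3.47) and bone (1.43) and CRST replicate 2 for oligodendrocytes. These arrays are also highest for choroid plexus (1.22 and 1.12), through different genes. Both CRST+RS5 arrays lie above the other 4 for the matrix and meningeal lists.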

How the data were processed

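Total RNA from pooled PL tissue was hybridized to mouse Ref8 version 2 bead arrays, 2 per group (CON, CRST, CRST+RS5). The authors extracted the arrays with GenomeStudio and deposited, for each of 25697 probes, the average signal intensity on a linear scale and a detection p-value. Whether background was subtracted is not given in the sources used here. The authors also deposited a table of quantile-normalized log2 values, which was used as an alternative (r = 0.999996 with the values used here on every array). No deposited column was left out for want of a sample (0 columns).

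No background was subtracted here. The signals of all 6 arrays were put on the log2 scale and quantile normalized (limma 3.58.1, R 4.3.3), and 13083 probes entered the comparisons, those whose detection p was below 0.05 in both pools of some group. Group means were compared at 1.2-fold, and CRST+RS5 was compared with CON in limma, fitted on the 3 groups, with Benjamini-Hochberg adjustment at 0.05. The number of arrays limits the precision. Alternatives were median scaling, no normalization, neqc, a pseudocount of 50, no filter, detection on all 6 arrays, leaving out single arrays, blocking on the replicate number, and a fit without the CRST arrays. The limma fit was also tested on simulated data with known changes.

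Names came from the probe, accession and symbol columns of the study's tables of selected probes, whose fold changes were not used. Of the 899 named probes, 851 matched a current symbol in RefSeq (GRCm38.p6). The genes named in the text were the 6 members, the 3 named probes nearest to each and to their mean, the other named genes of the proteoglycan, collagen, BMP and prostaglandin lists, and up to 4 of the brightest of each other list. Bglap2, Cbr2, Crabp2, Zic4, Adamts4 and Emilin1 were named after their values were seen. The members and lists were chosen with earlier results of these data known. The arrays of a group come from separate pools of animals. Chromosomal windows and motifs were read from RefSeq promoter sequences.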

Additional observations from a re-analysis of the deposited data

How the results depend on the processing

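With 2 arrays per group, 1 pool can set a value, and no setting makes the group spread well known. The 6 genes kept the sign of their difference in 64 of 65 values for CRST against CON, and in 65 of 65 for each of the other comparisons. The exception was Ogn, which ranged from -0.9985 to 0.0077 for CRST against CON with 1 array left out, the latter without CRST replicate 1. The genes past 1.2-fold in CRST against CON ranged from 0 to 6 when 1 array was left out. Beside that, all probes lower by 1.2-fold, 113, became 65 with median scaling, 34 with no normalization, 690 with neqc and 69 with a pseudocount of 50, and ranged from 226 to 400 with 1 array left out. For CRST+RS5 against CRST the 378 higher probes became 211, 188 and 974 with median scaling, no normalization and neqc, and without single arrays ranged from 494 to 642. For CRST+RS5 against CON the 336 higher probes became 219 with median scaling and 927 with neqc, and without single arrays ranged from 299 to 618. The split of higher and lower probes moved with the scaling, from 102 and 113 to 244 and 65 (median scaling) and 492 and 34 (none) for CRST against CON, from 378 and 229 to 211 and 1216, 188 and 1639, and 974 and 1066 (neqc) for CRST+RS5 against CRST, and from 336 and 172 to 219 and 430, 266 and 291, and 927 and 1001 for CRST+RS5 against CON. In CRST+RS5 against CRST the median of all probes was -0.11 with median scaling and -0.13 with no normalization, and the members' medians there were 1.22 and 1.21. With neqc the Col1a1 difference in that comparison was 2.28 and the Ogn difference 2.41.

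In CRST+RS5 against CON no member passed an adjusted p of 0.05 in limma, except 2 with no normalization, Ogn (0.0051) and Dcn (0.0497). Over the 13 alternatives for Ogn the adjusted p ran from 0.0051 to 1. Of the members higher on replicate 2 by 1.2-fold within CRST+RS5, 1, there were 2 with no normalization and 2 with neqc. The median of the oligodendrocyte list turned without CRST replicate 2, and with 1 array left out ranged from -0.2339 to 0.9747 for CRST against CON and from -1.0763 to 0.1025 for CRST+RS5 against CRST. The cause of these changes was not tested.

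Blocking on the replicate number (the replicate block) gave 0 probes past the adjusted p in CRST+RS5 against CON, as without it, and the members' adjusted p in limma lay between 0.0566 (Dcn) and 0.245 (Col1a1). Over all probes, same-numbered arrays deviated from their group means with a correlation of 0.247 (CON with CRST), 0.259 (CRST with CRST+RS5) and 0.0509 (CON with CRST+RS5), and the numbers were not taken to pair the arrays. As an alternative chosen after seeing the data, the members were compared between arrays of equal number, also for CRST against CON. All 12 differences between CRST+RS5 and CON lay between 0.42 and 1.59, and all 12 between CRST+RS5 and CRST between 0.54 and 2.09. Each set of 12 holds genes chosen on these arrays and is a description. The counts of the gene lists with either array that stood apart left out were also added after seeing the data.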
